A study of Arabidopsis thaliana with 9 samples.

Results

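Unnamed open reading frames of the mitochondrial genome were followed in whole Arabidopsis thaliana seedlings of 3 genotypes. They are the identifiers beginning with ATMG that are not among 38 identifiers of named mitochondrial genes, and 81 of the 22254 features in the count table met that rule. The table holds 118 mitochondrial identifiers in all, 37 of them named. clpp2-1 and clpp2-2 are knock-out lines of CLPP2 (AT5G23140), the proteolytic subunit of the Clp protease in the mitochondrial matrix, and wt is the Columbia-0 parent of both. Each genotype has 3 libraries, made with random hexamer primers from total RNA. Seedlings grew for 2 weeks in liquid medium on a shaker, with 16 h of light at 22 °C (150 µmol m-2 s-1) and 8 h of dark at 18 °C. How the gene was disrupted in either line is not known from the labels, and each line stands for 1 mutant allele in entire seedlings.

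Plant mitochondrial genomes carry, besides the genes of the respiratory chain, ATP synthase, ribosome and cytochrome c maturation, many open reading frames with no assigned function. Recombination can build such frames from pieces of known genes, and in several crops a chimeric frame of this kind causes cytoplasmic male sterility. Mitochondrial transcription runs well past gene ends, adjacent genes often share a transcript, and exonucleases trim and degrade the surplus RNA, so RNA from an open reading frame need not mean that a protein is made from it.

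The library totals lay between 36043744 and 36477053 counts, so 1 CPM, the count scaled to the library total, stands for 36 to 36.5 counts. CLPP2 averaged 5.62 ± 0.631 CPM in clpp2-1 and 4.53 ± 0.118 CPM in clpp2-2, against 44.8 ± 1.11 CPM in wt (SD, n = 3 each; log2 fold changes -3.00 and -3.28). Both lines thus had less CLPP2 RNA, as their labels say, with some left. The 5 green tissue markers summed to 18000 to 19500 CPM in clpp2-1, 21100 to 27100 CPM in clpp2-2 and 15500 to 23000 CPM in wt. The 6 root markers summed to 84.5 to 99.3 CPM in clpp2-1, 80.7 to 91.0 CPM in clpp2-2 and 86.4 to 114 CPM in wt. RNA of 8 seed storage genes summed to 0.907 to 13.2 CPM in clpp2-1, 0.631 to 1.11 CPM in clpp2-2 and 0.386 to 108 CPM in wt, with sums of 108 CPM in wt 1 and 23.4 CPM in wt 2. The labels do not say that libraries of 1 genotype are separate cultures, so p-values measure the spread between these libraries, which may be technical. In whole seedlings, a change in RNA per cell and a change in the number of cells that hold it cannot be told apart.

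The reference pairs 35 of the 81 unnamed identifiers with annotated nuclear copies of mitochondrial DNA, and the sequence of such a copy shows where the identifier lies in the mitochondrial genome (MT in TAIR10.1). For 30 identifiers the copy matched a single place at 99% identity or more, and at 25 of these places the annotation holds an open reading frame on the same strand. ATMG01280 lies at the frame ORF291 (MT:83519-84394, minus strand, 876 bases), 197 bases upstream of the first part of nad1. ATMG01090 lies at ORF262 (MT:269862-270650, minus strand, 789 bases), 310 bases downstream of atp9 on the same strand. ATMG00590 lies at ORF313 (MT:206517-207458, minus strand, 942 bases), 121 bases downstream of nad4. All 3 frames begin with a stretch of a respiratory gene and then go on with other sequence, which makes them chimeric in the sense given above. Their opening 60 bases are shown beside those of the gene they resemble because they show the gene each resembles, with capitals at the bases that differ within a pair (TAIR10.1, 5′ to 3′).
ORF291, ATMG01280, MT:84335-84394, minus strand: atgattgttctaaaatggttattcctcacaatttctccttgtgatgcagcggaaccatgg
cox2, MT:6264-6323, plus strand: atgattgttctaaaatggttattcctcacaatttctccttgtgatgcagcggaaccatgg
ORF262, ATMG01090, MT:270591-270650, minus strand: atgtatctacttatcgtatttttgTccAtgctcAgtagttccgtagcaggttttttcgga
nad5 part 1, MT:234352-234411, plus strand: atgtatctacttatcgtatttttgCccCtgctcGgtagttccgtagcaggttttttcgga
ORF313, ATMG00590, MT:207399-207458, minus strand: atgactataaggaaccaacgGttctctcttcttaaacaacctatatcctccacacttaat
cob, MT:182799-182858, minus strand: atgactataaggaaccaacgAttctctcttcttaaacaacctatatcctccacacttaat

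The resemblance of ORF291 to cox2, a subunit gene of cytochrome c oxidase, runs over its first 306 bases at 96.7% identity, and the annotation of its nuclear copy names a cytochrome c oxidase subunit II domain. ORF262 matches the start of nad5, a complex I gene, over 78 bases at 96.2% identity, and 336 bases nearer its end match another unnamed frame, ORF315, at 96.7%. ORF313 matches the start of cob, the cytochrome b gene, over 130 bases at 99.2% identity and then the complex I gene nad6 over 108 bases at 97.2%. Of the 3 chimeric frames, ATMG01280 and ATMG01090 rose in both lines and ATMG00590 was not called in either. Likewise cob, whose start ATMG00590 shares, was not called (log2 0.01 and 0.24, edgeR adjusted p = 0.993 and 0.191). The genes cox2, nad5 and nad6 were not linked to an identifier here, so their values are not set beside the frames. Whether the frames differ from the genes they resemble was not tested. Reads from the shared stretches and from nuclear copies cannot be told from those of the identifier, and none of the 55 annotated copies found has a row in the table used here, so the values of these identifiers may hold RNA of their copies. The table does hold other nuclear rows that match the mitochondrial genome over their whole length. Some of them were called higher in clpp2-2 and others were not called.

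In each knock-out line, a minority of the unnamed open reading frames was called higher than in wt, and the test called none lower. An identifier was called where edgeR's quasi-likelihood test, adjusted by Benjamini-Hochberg over the 20294 features tested, gave p under 0.05, and 'rose' and 'fell' are used of such calls only. Of the 79 unnamed identifiers tested, 16 rose and 0 fell in clpp2-1 (20.3% higher, against 0.153% of all features higher and 0.0246% lower). In clpp2-2, 26 rose and 0 fell (32.9% higher, against 5.50% of all features higher and 4.57% lower). 16 were called in both comparisons, which share the wt libraries, so the values of each line are given side by side. For the mean of both lines 19 rose and 0 fell, against 0.714% of all features higher and 0.350% lower. The median log2 fold change of the 79 was 0.04 in clpp2-1 and 0.49 in clpp2-2, beside -0.001 and -0.012 over all features, so in clpp2-1 the middle of the list lay close to wt. The 37 named identifiers had medians of 0.43 in clpp2-1 and 0.64 in clpp2-2, with 10 higher and 1 lower in clpp2-1 and 23 higher and 1 lower in clpp2-2. In clpp2-1, 24 of the 79 had all 3 libraries above wt and 13 had all 3 below (6.37 and 3.74% of all features did), and in clpp2-2 it was 40 above and 4 below (14.8 and 19.0%). All 6 mutant libraries were above wt for 24 and below for 4 (2.59 and 2.00% of all features). The count of calls for clpp2-1 was 8 without wt 1, 10 without wt 3, 9 without clpp2-1 3 and 7 where only clpp2-1 and wt entered the fit. With clpp2-1 1 and wt 1 left out, each the library of its genotype with the highest seed storage sum, it was 11 in clpp2-1 and 22 in clpp2-2.

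**Figure D1:**
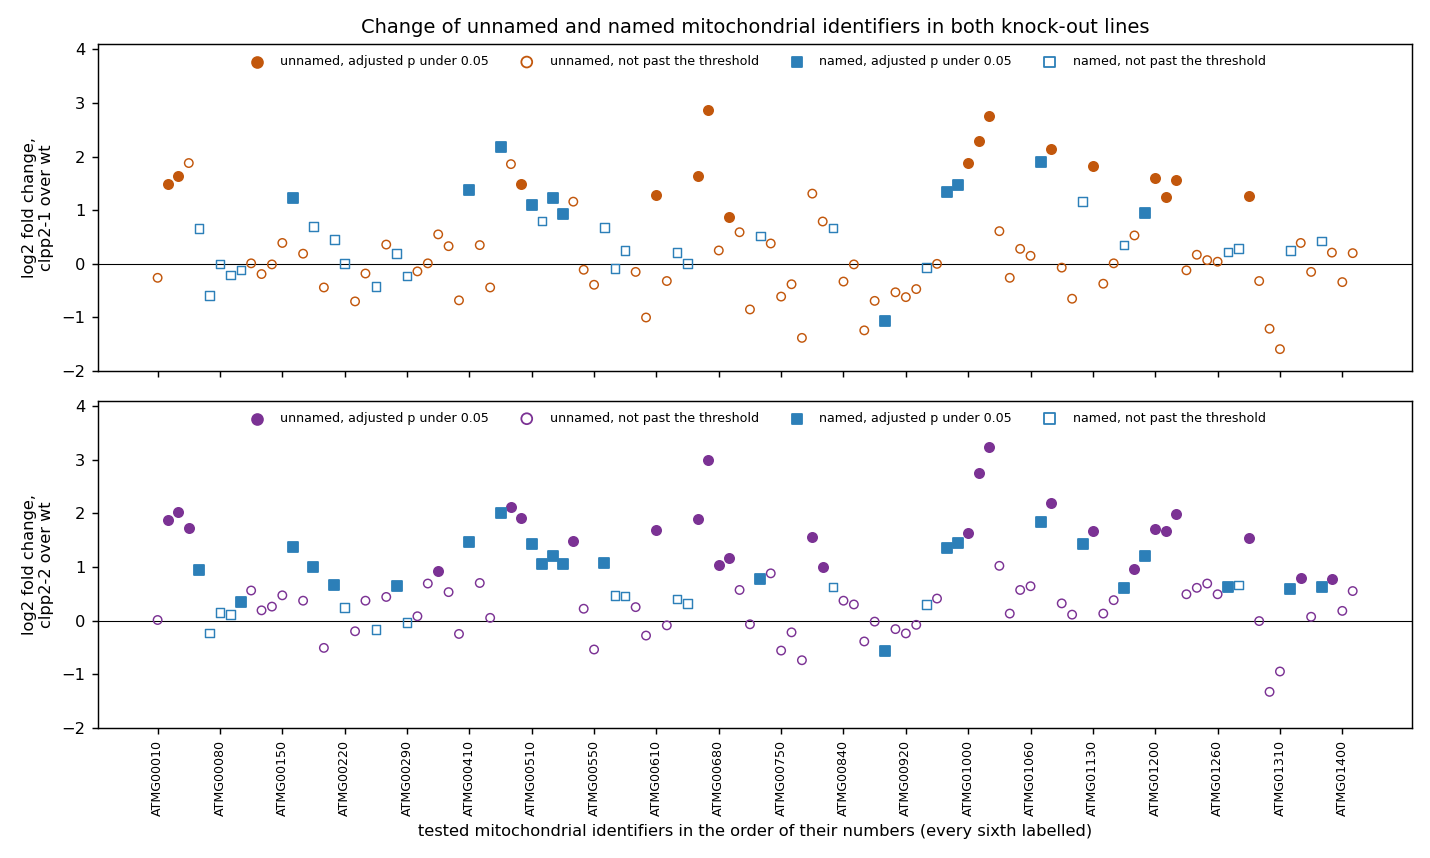
Log2 fold change of clpp2-1 over wt (upper panel) and clpp2-2 over wt (lower panel) for the 79 unnamed (circles) and 37 named (squares) mitochondrial identifiers tested, in the order of their numbers; filled symbols have an adjusted p under 0.05 (edgeR). Some of the identifiers that rose in clpp2-2 follow each other in number (ATMG00030 to ATMG00050, ATMG00660 to ATMG00690, ATMG01000 to ATMG01020 and ATMG01200 to ATMG01220), and others, such as ATMG00320, ATMG00610 and ATMG01280, stand alone.

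The widest changes lay at ATMG00670 and at ATMG01010 and ATMG01020, with each described here by the value of every library. ATMG00670, which the reference does not place, had 10.1, 12.9 and 11.4 CPM in clpp2-1 and 12.9, 12 and 11.5 CPM in clpp2-2, against 1.05, 1.38 and 2.23 CPM in wt. Every mutant library thus lay above every wt library, and the log2 fold changes were 2.87 (SE 0.229, edgeR adjusted p = 0.0015) in clpp2-1 and 2.99 (SE 0.229, adjusted p = 0.000368) in clpp2-2. The identifiers numbered next to it moved as well. ATMG00660 had 6.66, 7.90 and 7.92 CPM in clpp2-1 and 8.58, 8.02 and 9.65 CPM in clpp2-2, against 2.54, 2.18 and 2.51 CPM in wt (log2 1.63 and 1.89, edgeR adjusted p = 0.00105 and 0.00015). ATMG00690, on a higher level, had 24.4, 32.7 and 30.4 CPM in clpp2-1 and 36.5, 32.3 and 34.3 CPM in clpp2-2, against 14.9, 15.8 and 16.6 CPM in wt (log2 0.88 and 1.16, edgeR adjusted p = 0.0161 and 0.000863). ATMG00680, between them in number, rose in clpp2-2 (log2 1.04, edgeR adjusted p = 0.0423), with a log2 fold change of 0.25 in clpp2-1. The clpp2-1 call of ATMG00690 was lost without wt 1, wt 3 or clpp2-1 3 (adjusted p = 0.0877 to 0.107). The clpp2-2 call of ATMG00680 held without wt 2 and was lost without any 1 of the other 8 libraries (adjusted p = 0.0576 to 0.124).

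Another run of unnamed frames stands beside nad3, a complex I gene, and rps12, a ribosomal protein gene. ATMG01020 had 2.59, 4.68 and 3.71 CPM in clpp2-1 and 5.37, 4.72 and 4.79 CPM in clpp2-2, against 0.551, 0.386 and 0.662 CPM in wt. The mutant libraries were all higher, by log2 2.76 (SE 0.266, edgeR adjusted p = 0.0045) in clpp2-1 and 3.24 (SE 0.269, adjusted p = 0.000565) in clpp2-2, the widest fold change of any unnamed identifier in clpp2-2. Its clpp2-1 call was lost with only clpp2-1 and wt in the fit (adjusted p = 0.0597). ATMG01010 lies in the region MT:287187-287942 on the plus strand, which holds ORF118 and ends 101 bases upstream of nad3 on the same strand. It had 1.95, 3.08 and 2.42 CPM in clpp2-1 and 3.62, 3.22 and 3.16 CPM in clpp2-2, against 0.524, 0.579 and 0.386 CPM in wt (log2 2.30 and 2.76, edgeR adjusted p = 0.00769 and 0.000796). Its clpp2-1 call was lost without wt 1 (adjusted p = 0.0527). ATMG01000, numbered between nad3 and ATMG01010, had 17.7, 17.3 and 16.3 CPM in clpp2-1 and 16.4, 13.1 and 12.8 CPM in clpp2-2, against 4.80, 3.17 and 5.90 CPM in wt (log2 1.88 and 1.64, edgeR adjusted p = 0.00601 and 0.00246). Its clpp2-1 call was lost with clpp2-1 1 and wt 1 both left out (adjusted p = 0.126). nad3 itself rose by log2 1.47 and 1.45 (edgeR adjusted p = 0.0269 and 0.00471) and rps12 by 1.34 and 1.35 (adjusted p = 0.00769 and 0.00152). The clpp2-1 call of nad3 was lost in 8 of the 9 fits that leave out a library (adjusted p = 0.0587 to 0.123). The fold changes of ATMG01010 are larger than those of nad3, a difference that was not tested. ATMG01030, 3109 bases upstream of nad3 on the same strand, was not called, with log2 0.61 and 1.02 (edgeR adjusted p = 0.775 and 0.104).

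The ATP synthase genes atp9, atp8 and atp1 also have unnamed frames that rose beside them. ATMG01090, the chimeric frame downstream of atp9, had 30.7, 42.7 and 37.4 CPM in clpp2-1 and 39.9, 34.9 and 37.7 CPM in clpp2-2, against 7.75, 9.02 and 8.19 CPM in wt (log2 2.14 and 2.20, SE 0.126 each, edgeR adjusted p = 0.000192 and 0.000103). Every mutant library was above the wt range, and atp9, which encodes the membrane ring subunit, rose by 1.90 and 1.84. ATMG00500 was placed in the region MT:245652-246433 on the minus strand, which comes within 321 bases of nad7, upstream of it on the same strand. In that region ORF141 takes up the part away from nad7 (MT:246008-246433), and ATMG00500 follows atp8 and ATMG00490 in number. It had 4.40, 6.88 and 4.98 CPM in clpp2-1 and 7.65, 7.24 and 6.57 CPM in clpp2-2, against 2.10, 1.57 and 2.10 CPM in wt (log2 1.49 and 1.92, edgeR adjusted p = 0.0237 and 0.00123). Its clpp2-1 call held without clpp2-1 1 or clpp2-1 2 and was lost without any of the other 7 libraries (adjusted p = 0.0523 to 0.113). ATMG00490 averaged 2.19 ± 0.851 CPM in clpp2-1 and 2.53 ± 0.238 CPM in clpp2-2, against 0.597 ± 0.016 CPM in wt (SD, n = 3 each; log2 1.86 and 2.11), and was called in clpp2-2 (edgeR adjusted p = 0.00558) and not in clpp2-1 (adjusted p = 0.0726). atp8, a small membrane subunit, rose by 2.17 and 2.01. On the other side of atp8 (MT:247016-247492) and on the opposite strand, ATMG00470 was placed in a region of 3637 bases that begins 242 bases away. The frame in that region, ORF122A (MT:249558-249926), lies further from atp8. ATMG00470 was not called, with log2 -0.44 and 0.05.

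3 unnamed identifiers follow atp1, the gene of the alpha subunit, in number, and all 3 rose in both lines. ATMG01200 had 21.7, 26.8 and 26.1 CPM in clpp2-1 and 25.2, 27.1 and 25.9 CPM in clpp2-2, against 7.88, 7.67 and 8.82 CPM in wt (log2 1.60 and 1.71, edgeR adjusted p = 0.000185 and 6.46e-05). ATMG01220, a region of 2704 bases that ends 1979 bases upstream of atp1 on the same strand (MT:70601-73304), had 10.3, 12.4 and 12 CPM in clpp2-1 and 14.6, 15.9 and 15.0 CPM in clpp2-2, against 3.91, 3.78 and 4 CPM in wt (log2 1.56 and 1.99, edgeR adjusted p = 0.000185 and 2.52e-05). Both were several-fold higher in every mutant library. ATMG01210, which lies at ORF101B (MT:69711-70016, minus strand) between ATMG01220 and atp1, averaged 5.43 ± 1.26 CPM in clpp2-1 and 7.07 ± 0.521 CPM in clpp2-2, against 2.27 ± 0.136 CPM in wt (SD, n = 3 each; log2 1.25 and 1.67, edgeR adjusted p = 0.0403 and 0.00167). Its clpp2-1 call held without clpp2-1 1 and was lost without any of the other 8 (adjusted p = 0.081 to 0.242). atp1 rose by 0.95 and 1.2. On its other side, ATMG01100 lies 1311 bases downstream of atp1 on the same strand and was not called, with log2 -0.07 and 0.32. ATMG01110, 2731 bases downstream on the opposite strand, was not called either, with log2 -0.65 and 0.11.

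ATMG00030 carried more counts than any other unnamed identifier, 23.2% of all counts on the 81. It had 91.6, 105 and 96.8 CPM in clpp2-1 and 121, 124 and 129 CPM in clpp2-2, against 37.8, 30.6 and 35.3 CPM in wt. The genotypes stood apart without overlap, clpp2-2 highest and wt lowest, with log2 fold changes of 1.49 (SE 0.0813, edgeR adjusted p = 0.000185) in clpp2-1 and 1.88 (SE 0.0819, adjusted p = 2.52e-05) in clpp2-2. ATMG00040, next to it in number, had 6.33, 8.06 and 6.96 CPM in clpp2-1 and 8.91, 9.18 and 9.13 CPM in clpp2-2, against 2.01, 2.92 and 1.85 CPM in wt (log2 1.64 and 2.03, edgeR adjusted p = 0.0107 and 0.000863). Its clpp2-1 call was lost without wt 1, clpp2-1 2 or clpp2-1 3 (adjusted p = 0.0531 to 0.0791). ATMG00050 rose in clpp2-2 (log2 1.73, edgeR adjusted p = 0.0407), which held without clpp2-1 1 and in no other fit that leaves out a library (adjusted p = 0.0509 to 0.128).

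The other identifiers called in both lines were ATMG01130, ATMG00610 and ATMG01280. ATMG01130, at a low level, had 1.07, 1.46 and 1.24 CPM in clpp2-1 and 1.18, 0.971 and 1.13 CPM in clpp2-2, against 0.331, 0.331 and 0.386 CPM in wt (log2 1.83 and 1.67, edgeR adjusted p = 0.0273 and 0.00663). Its clpp2-1 call was lost without any 1 of the 9 libraries (adjusted p = 0.0664 to 0.182). ATMG01280, the cox2-like ORF291, averaged 10.1 ± 1.87 CPM in clpp2-1 and 11.9 ± 0.565 CPM in clpp2-2, against 4.17 ± 0.513 CPM in wt (SD, n = 3 each; log2 1.27 and 1.54, edgeR adjusted p = 0.0141 and 0.00111). Its nearest gene, the first part of nad1, was not called, with log2 0.29 and 0.66 (edgeR adjusted p = 0.803 and 0.103). The gene cox2, whose start it shares, was not linked to an identifier here. Whether the rise of ATMG01280 goes with a change of cox2 was therefore not tested. ATMG00610, at ORF161 (MT:200226-200711, plus strand), has a nuclear copy annotated as a putative membrane lipoprotein, and its nearest annotated gene other than tRNA genes, nad4, lies 6868 bases away. It averaged 6.25 ± 1.57 CPM in clpp2-1 and 8.04 ± 0.134 CPM in clpp2-2, against 2.56 ± 0.184 CPM in wt (SD, n = 3 each; log2 1.28 and 1.68, edgeR adjusted p = 0.0388 and 0.00175). The clpp2-1 call of ATMG01280 was lost when wt 1, wt 3, clpp2-1 2 or clpp2-1 3 was left out (adjusted p = 0.051 to 0.0829), and that of ATMG00610 when any library except clpp2-1 1 was (adjusted p = 0.0694 to 0.199).

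**Figure D2:**
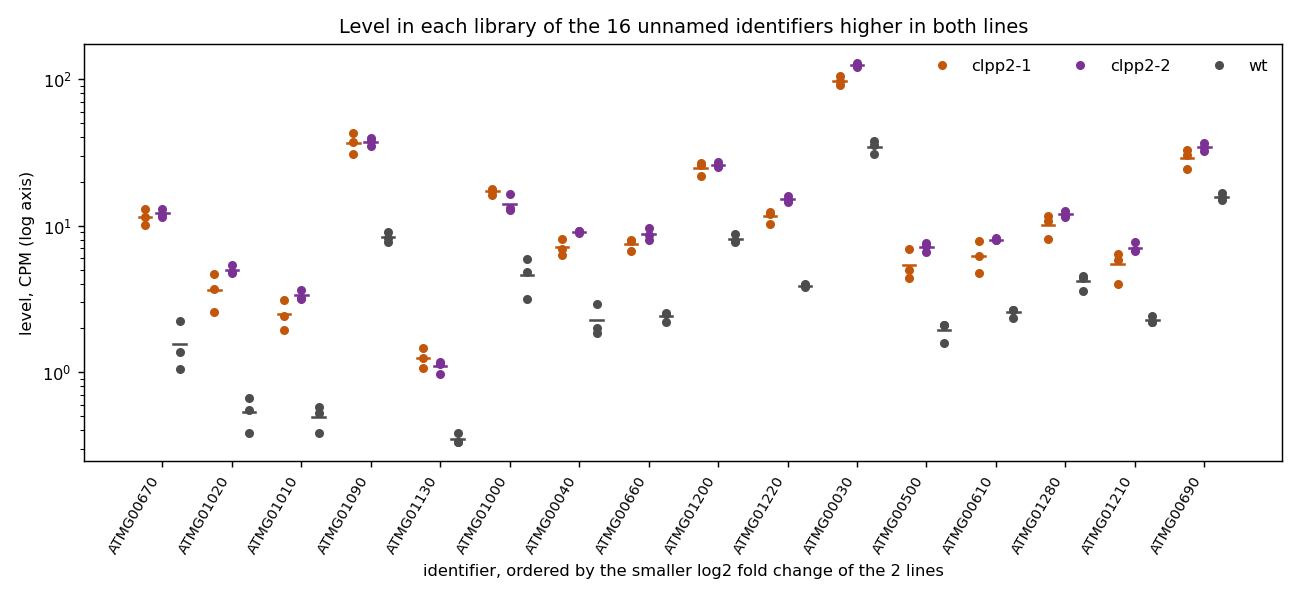
Level (CPM, log axis) in each library of the 16 unnamed identifiers called higher in both lines, with points for the libraries of clpp2-1, clpp2-2 and wt and a bar at each genotype's mean. All 6 mutant libraries lie above the 3 wt libraries for each of the 16, from ATMG01130 near 1 CPM in the mutants to ATMG00030 above 90 CPM. The 16 were picked by calls against these same wt libraries, so this separation mostly follows from the choice (2.59% of all features have it).

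Calls were counted by abundance. Of the 15 tested unnamed identifiers with a mean of 5 CPM or more over all libraries, 11 rose in clpp2-1 and 12 in clpp2-2. Of the 38 between 1 and 5 CPM, 4 and 12 rose, and of the 26 under 1 CPM, 1 and 2. Over all features of any level, 0.153% were higher in clpp2-1 and 5.50% in clpp2-2. The share of all features called within each class is not given, so the class counts have no background of their own. How far detection at low counts enters was not tested. The median log2 fold change also differed between these classes: in clpp2-1 it was 1.49, 0.01 and -0.36 from the highest class to the lowest, and in clpp2-2 it was 1.68, 0.48 and 0.03. The class is set by a mean that includes the mutant libraries, and CPM is not scaled to length, so levels here do not rank the frames against each other. Apart from ATMG00030, ATMG01090, ATMG00690 and ATMG01200, the identifiers with the highest means were ATMG00170 (18.0 CPM) and ATMG00370 (13 CPM, at ORF199, whose nuclear copy is annotated as a Ycf1 protein). ATMG00170 averaged 18.1 ± 2.67 CPM in clpp2-1 and 19.9 ± 0.578 CPM in clpp2-2, against 15.8 ± 1.77 CPM in wt (SD, n = 3 each; log2 0.19 and 0.37, edgeR adjusted p = 0.774 and 0.0725). ATMG00370 averaged 13.4 ± 1.96 CPM in clpp2-1 and 15.0 ± 2.16 CPM in clpp2-2, against 10.6 ± 1.41 CPM in wt (log2 0.33 and 0.53, edgeR adjusted p = 0.758 and 0.0506). Neither was called, though the clpp2-2 value of ATMG00370 stood at the threshold and passed it with DESeq2 size factors, the DESeq2 Wald test, library sizes without organelle rows or without clpp2-1 1 (adjusted p = 0.0108 to 0.0496). The clpp2-2 call of ATMG00170 was made by the DESeq2 Wald test or without clpp2-1 2 (adjusted p = 0.0314 and 0.0346).

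10 unnamed identifiers were called in clpp2-2 and not in clpp2-1, and 0 in clpp2-1 alone. They were ATMG00050, ATMG00320, ATMG00490, ATMG00530, ATMG00680, ATMG00810, ATMG00820, ATMG01180, ATMG01330 and ATMG01370, with log2 fold changes of 0.21 to 1.88 in clpp2-1 and 0.78 to 2.11 in clpp2-2. Only ATMG00030, ATMG01220 and ATMG01370 of all unnamed identifiers passed the direct test between the lines, so the other 9 of the 10 are not shown to differ between them. The clpp2-2 calls of ATMG00320, ATMG00820 and ATMG01180 were lost in 7, 4 and 3 of the 9 fits that leave out a library: for ATMG00320 all but those without clpp2-1 2 or wt 2 (adjusted p = 0.0599 to 0.135), for ATMG00820 those without clpp2-2 1, clpp2-2 3, wt 1 or wt 3 (0.0748 to 0.0792), and for ATMG01180 those without clpp2-2 2, clpp2-2 3 or wt 3 (0.0622 to 0.0799). ATMG00810 (log2 1.55, edgeR adjusted p = 0.00388 in clpp2-2) had log2 1.31 in clpp2-1 (adjusted p = 0.0612). ATMG00530, at ORF109 (MT:229740-230069), 234 bases from the third part of nad1, had log2 1.49 in clpp2-2 (edgeR adjusted p = 0.0115) and 1.16 in clpp2-1 (adjusted p = 0.39). ATMG01330, at ORF107H, lies within the span of the second part of nad2 on the same strand and rose in clpp2-2 by 0.79 (edgeR adjusted p = 0.0225), beside 0.58 for that nad2 identifier (adjusted p = 0.0281). Both calls were lost without wt 1, wt 3, clpp2-2 2 or clpp2-2 3, and that of ATMG01330 also without clpp2-2 1 (adjusted p = 0.062 to 0.0891). Reads there cannot be told apart.

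The 2 lines were compared directly. Of the 79, 3 were called higher and 0 lower in clpp2-2 against clpp2-1, where 2.34% of all features were higher and 1.63% lower, so the share called is close to the background. In 29 of the 79 all clpp2-2 libraries were above all clpp2-1 libraries and in 0 below, as in 11.9 and 20.6% of all features. ATMG00030 was higher by log2 0.39 (SE 0.0782, edgeR adjusted p = 0.0328) and ATMG01220 by 0.43 (adjusted p = 0.0313). ATMG01370, the third, had 14.6, 14.1 and 16.6 CPM in clpp2-2, against 8.97, 11.4 and 10.7 CPM in clpp2-1, and 7.66, 9.27 and 9.93 CPM in wt. All 3 clpp2-2 libraries were above the others, by log2 0.58 over clpp2-1 (SE 0.124, edgeR adjusted p = 0.0413), while clpp2-1 and wt overlapped. The count was 0 without clpp2-1 1, clpp2-1 3 or any 1 of the clpp2-2 libraries. Of the 79 log2 differences, 72 were positive, with a median of 0.39, where the median over all features was -0.011. The named identifiers had a median of 0.25 in the same comparison, 32 of 37 being positive.

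Position was examined through the order of the numbers and through the placed identifiers. Of 46 pairs of an unnamed identifier and a named one next to it in number, 30 had log2 fold changes of the same sign in clpp2-1 and 34 in clpp2-2. Of all 79 unnamed identifiers, 43 were positive in clpp2-1 and 61 in clpp2-2, and of the 37 named ones 28 and 33. Many pairs would thus share a sign wherever they lay, most of all in clpp2-2. The median absolute difference within a pair was 0.52 and 0.49. Across the pairs, which share libraries and partly share an identifier, Pearson's r was 0.39 and 0.38 and Spearman's rho 0.34 and 0.33, given as a description. Of the 14 unnamed identifiers beside a named one called higher in clpp2-1, 4 rose, and of the 27 beside named ones not called higher, 3 rose. In clpp2-2, 11 of 29 and 3 of 12 rose. ATMG00890 and ATMG00910, beside the cytochrome c maturation gene ccmC, which was called lower in both lines, count among the 27 and the 12. Standing beside any named identifier made little difference to the median, at 0.04 against 0.04 in clpp2-1 and 0.44 against 0.54 in clpp2-2 for the 41 with and the 38 without a named neighbour. The order of the numbers is not always that of the genome: ATMG01180 lies near atp9 (MT:267555-269300), far from ATMG01190, which is atp1 (MT:67098-68621).

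Among the placed identifiers, those on the strand of their nearest annotated gene, tRNA genes left out, were more often called than those on the opposite strand. Of 17 on the same strand, 6 rose in clpp2-1 and 8 in clpp2-2, with median log2 fold changes of 0.39 and 0.79. Of 12 on the opposite strand, 1 rose in clpp2-1 and 1 in clpp2-2, the same ATMG00610, with medians of -0.42 and 0.08. This split was made after the values were seen and is a description of 29 identifiers without a test. ATMG00400 lies on the strand opposite to atp6 and 24 bases upstream of it (MT:48918-49398), and had 2.59, 3.77 and 2.61 CPM in clpp2-1 and 4.28, 3.16 and 4.37 CPM in clpp2-2, against 4.11, 5.41 and 4.77 CPM in wt. The genotypes overlapped for clpp2-2 and not for clpp2-1, where all 3 libraries were lower, and neither difference was called (log2 -0.68 and -0.25, edgeR adjusted p = 0.758 and 0.456). That atp6 copy, ATMG00410, rose by 1.37 and 1.47. Some identifiers close to a gene on its strand were not called: ATMG00590, 121 bases downstream of nad4, had log2 -0.15 and 0.25 (edgeR adjusted p = 0.856 and 0.367), and ATMG00910, 374 bases upstream of ccmC, had -0.53 and -0.16, beside -1.06 and -0.57 for ccmC, a cytochrome c maturation gene that was called lower in both lines. The ccmC calls were lost in all 9 fits without a library for clpp2-1 and in 8 of 9 for clpp2-2 (adjusted p = 0.05 to 0.219). The labels do not say whether the library kit and the counting kept the strand, so reads of opposite strands that overlap cannot be told apart.

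**Figure D3:**
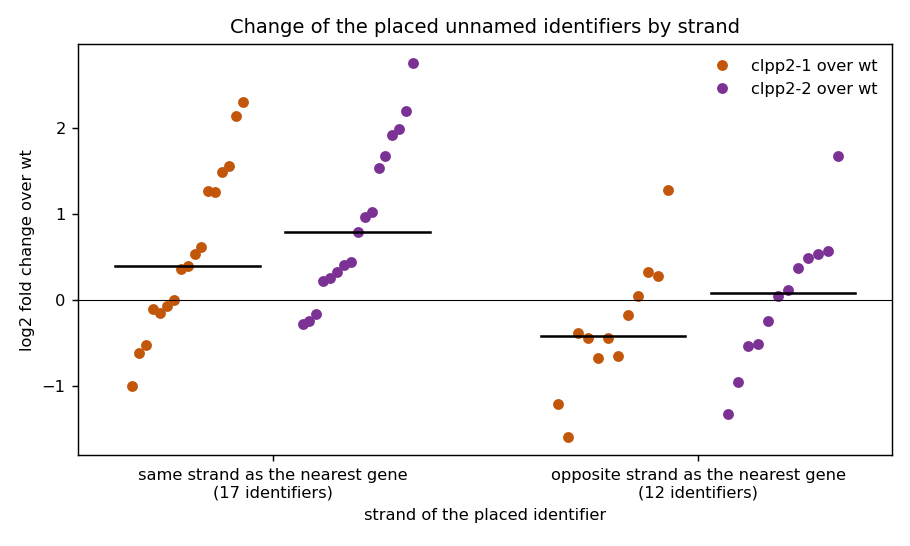
Log2 fold change over wt, in clpp2-1 and in clpp2-2, of the 17 placed unnamed identifiers on the same strand as their nearest annotated gene and of the 12 on the opposite strand; each point is 1 identifier and each line a median. The medians are 0.39 and 0.79 on the same strand and -0.42 and 0.08 on the opposite strand, and ATMG00610 is the high point on the opposite strand.

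Most unnamed frames did not pass the test: 53 of the 79 were called in neither line, with 41 of the 79 within 0.5 of 0 on the log2 scale in clpp2-1 and 35 in clpp2-2. They include long runs in number, such as ATMG00120 to ATMG00150, ATMG00740 to ATMG00770 and the tested ones from ATMG00840 to ATMG00970. The smallest changes for the mean of both lines were those of ATMG00130 (log2 0.00, SE 0.137), ATMG00840 (0.02, SE 0.365), ATMG00300 (-0.03, SE 0.173) and ATMG01350 (-0.04, SE 0.166). ATMG00130 had 2.20, 2.97 and 2.69 CPM in clpp2-1 and 3.65, 3.25 and 3.08 CPM in clpp2-2, against 2.84, 2.68 and 3.42 CPM in wt, which overlap. At an unadjusted p under 0.05, edgeR had 10 lower in clpp2-1 and 2 in clpp2-2. It had 5 lower when both lines were averaged and 0 in clpp2-2 against clpp2-1. The share of all features lower at that unadjusted threshold is not given, so these counts cannot be set against a background. DESeq2 and limma-voom called 0 lower in either line or between the lines. ATMG01310, at ORF136B (MT:91028-91438, plus strand), had 0.275, 0.220 and 0.247 CPM in clpp2-1 and 0.302, 0.361 and 0.468 CPM in clpp2-2, against 0.772, 0.855 and 0.607 CPM in wt. All mutant libraries were lower, at 8 to 31 counts a library. For the mean of both lines its log2 fold change was -1.27 in edgeR (adjusted p = 0.0682), and it was called lower by DESeq2 (adjusted p = 0.0277) and limma-voom (adjusted p = 0.0495). ATMG00850 and ATMG00870 were removed by the filter on low counts, with at most 12 counts in any library, and no value of a test is given for them.

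Counts on the 81 unnamed identifiers together made up 0.0359, 0.0456 and 0.0407% of all counts in clpp2-1 and 0.0496, 0.0471 and 0.0490% in clpp2-2, against 0.0202, 0.0214 and 0.0231% in wt. Every mutant library was above every wt library, with means 1.89 times that of wt in clpp2-1 and 2.25 times in clpp2-2, while the named identifiers came to 1.62 and 1.81 times. The 16 identifiers called in both lines hold 62.9% of the counts on the 81, so the sum mostly follows them. Within the mitochondrial counts, the unnamed share was 41.8, 42.9 and 43.2% in clpp2-1 and 43.5, 44.9 and 44.2% in clpp2-2, against 37.4, 39.9 and 39.5% in wt. The mutant libraries were again all higher, with a mean of 1.1 times wt in clpp2-1 and 1.14 times in clpp2-2. Without ATMG00030 it was 1.04 times wt in clpp2-1, 1.06 times in clpp2-2 and 1.05 times for the mean of both lines. The clpp2-1 libraries were then no longer all above those of wt. The plastid share of all counts was 0.379 to 0.506% in clpp2-1, 0.488 to 0.570% in clpp2-2 and 0.356 to 0.423% in wt, and its part in these shares was not tested.

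**Figure D4:**
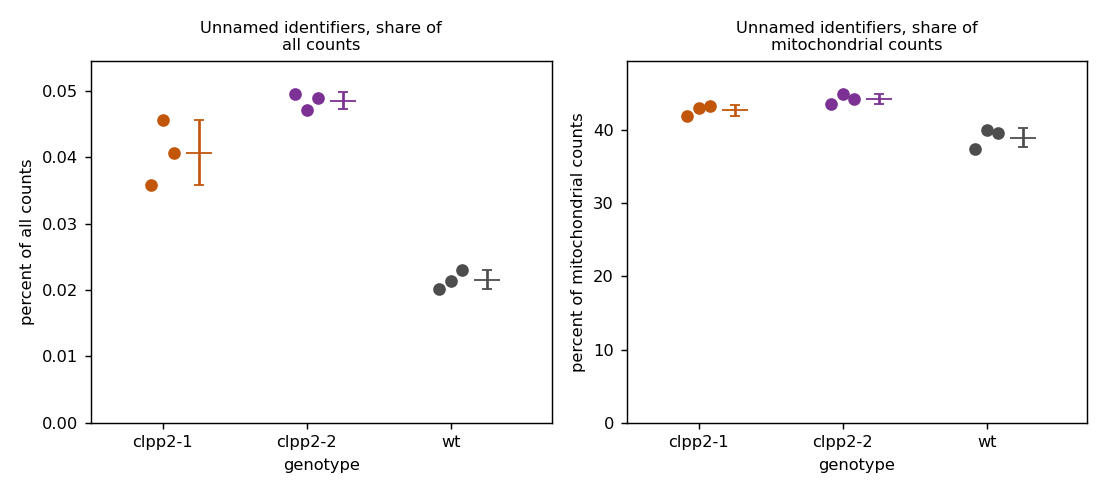
Share of all counts (left, percent) and of mitochondrial counts (right, percent) on the 81 unnamed identifiers in clpp2-1, clpp2-2 and wt; points are libraries, and the bar beside them gives mean ± SD (n = 3). In both panels every mutant library lies above every wt library, 0.0359 to 0.0496% against 0.0202 to 0.0231% of all counts and 41.8 to 44.9% against 37.4 to 39.9% of mitochondrial counts. Without ATMG00030, clpp2-1 and wt are no longer apart in the share of mitochondrial counts.

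Of 5 nuclear genes whose products make or remove mitochondrial RNA, 2 rose in clpp2-2, by log2 0.50 and 0.27, and none in clpp2-1. RPOTm (AT1G68990), the mitochondrial RNA polymerase, stood at 84.4 ± 5.59 CPM in clpp2-1 and 81.3 ± 4.65 CPM in clpp2-2, against 78.3 ± 3.47 CPM in wt (SD, n = 3 each), and was not called (log2 0.10 and 0.08, edgeR adjusted p = 0.777 and 0.381). RPOTmp (AT5G15700), the polymerase shared with plastids, and SUV3 (AT4G14790), an RNA helicase, were not called in either line, at log2 0.05 to 0.12. The gene of the mitochondrial polynucleotide phosphorylase (AT5G14580), an exonuclease that degrades surplus and non-coding mitochondrial RNA, averaged 33.3 ± 4.80 CPM in clpp2-1 and 41.8 ± 2.61 CPM in clpp2-2, against 30.1 ± 2.71 CPM in wt. It rose in clpp2-2 (log2 0.50, edgeR adjusted p = 0.0254) and was not called in clpp2-1 (log2 0.14, adjusted p = 0.80). RNR1 (AT5G02250), an exoribonuclease of organelles, rose in clpp2-2 by 0.27 (edgeR adjusted p = 0.0384), with 0.07 in clpp2-1 (adjusted p = 0.817). The call of the phosphorylase was lost in 5 of the 9 fits that leave out a library (adjusted p = 0.0619 to 0.0795) and that of RNR1 in 8 of them (adjusted p = 0.0543 to 0.124).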

How the data were processed

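The authors' deposited table holds expected counts per gene, that is, estimated counts rounded to whole numbers, for 9 libraries, with row sums of at least 10. Per the submitters' processing notes, FastQC, Salmon 0.14.0, DESeq, DESeq2 and TAIR10 were used, with no role stated for any of them. The totals lie so close together that the values may have been scaled before they were deposited. Counts were tested with edgeR 4.0.16 (R 4.3.3): filterByExpr left 20294 of 22254 rows, TMM scaling was applied, and all 9 libraries entered a single quasi-likelihood fit with 4 contrasts, with a common biological coefficient of variation of 0.176. A standard error (SE) is the size of a log2 fold change divided by the root of F. CPM is the count over the library total, and SD is over 3 libraries.

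Identifiers were placed by matching annotated nuclear copies (BLAST 2.17.0) to the TAIR10.1 mitochondrial genome, with at least 99% identity, 90% of the copy matched, 150 bases and 1 place; the named genes follow the same links. Shared stretches needed 40 bases at 85% identity. Sequences came from RefSeq.

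The members, lists and alternatives were chosen with earlier results of these data known. Named members are those called in both lines (the first 12 by the smaller change with every library's value), called lower, called between the lines, highest in mean CPM or smallest in change. Identifiers named for position or for being called in clpp2-2 alone were chosen after their values were seen. The alternatives were DESeq2 1.42.0 size factors and Wald test, no filter, limma-voom (limma 3.58.1), a replicate block, only the groups compared, library sizes without organelle rows and each library left out. Leaving out wt 1 and clpp2-1 1 together was chosen after seeing the data. The fit was tested on simulated data, with changes set in features above a floor of counts. It recovered 47.8% of 1.5-fold changes in each line. Of 2-fold changes it recovered 77.6% in clpp2-1 and 68.7% in clpp2-2, and of 4-fold changes 87.9% and 86.4%. False calls were 3.4% and 0.735% of all calls. A feature that was not called may thus still differ. Tables were handled in Python 3.11.15.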

Additional observations from a re-analysis of the deposited data

Results flagged for a closer look

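ATMG00030, ATMG01220 and ATMG01370 differed between the 2 lines by a direct test of clpp2-2 against clpp2-1 (edgeR's quasi-likelihood test, Benjamini-Hochberg adjusted over 20294 features). ATMG00030 averaged 125 ± 3.99 CPM in clpp2-2 and 97.7 ± 6.51 CPM in clpp2-1 (SD, n = 3 each), a log2 difference of 0.39 (edgeR adjusted p = 0.0328; 0.0669 to 0.115 without clpp2-1 1, clpp2-1 3 or any 1 clpp2-2 library). ATMG01220 averaged 15.2 ± 0.673 CPM in clpp2-2 and 11.6 ± 1.15 CPM in clpp2-1, a log2 difference of 0.43 (edgeR adjusted p = 0.0313; 0.0669 to 0.127 without the same libraries). ATMG01370 averaged 15.1 ± 1.31 CPM in clpp2-2 and 10.4 ± 1.27 CPM in clpp2-1, a log2 difference of 0.58 (edgeR adjusted p = 0.0413; 0.0618 to 0.137 without any 1 library of either line). In each of the 3, all clpp2-2 libraries were above all clpp2-1 libraries, as in 11.9% of all features.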

How the results depend on the processing

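The direction of every call of an unnamed identifier, in each line and between the lines, held under all 17 alternatives. Of the 16 calls in clpp2-1, 6 held under all of them (ATMG00030, ATMG00660, ATMG00670, ATMG01090, ATMG01200 and ATMG01220), as did 20 of the 26 in clpp2-2 and 0 of the 3 between the lines. The clpp2-1 count was 7 with only the groups compared and 8 to 18 with 1 library left out. The count between the lines was 0 to 3 with 1 library left out, and 0 without wt 1 and clpp2-1 1, an alternative chosen after seeing the data. For the other counts of calls, 20 to 26 in clpp2-2 and 15 to 24 for the mean of both lines with 1 library left out, all alternatives stayed within 1.5 times. The share of mitochondrial counts for the mean of both lines fell to 1.05 times wt without ATMG00030. Replicate numbers were not shown to pair libraries: deviations of same-numbered libraries correlated at -0.154 to 0.117 over 14263 genes. The replicate block gave 11 calls in clpp2-1, 22 in clpp2-2, 15 for the mean and 2 between the lines, and in clpp2-1 it lost ATMG00500, ATMG00610, ATMG00690, ATMG01130 and ATMG01210 (adjusted p = 0.0817 to 0.181). Same-sign pairs with a named neighbour were 65.2% and 73.9% in the 2 lines, and 64.3% and 76.2% within 10 in number. These shares were not set against the one that the many positive changes alone would give. Depth limits the 28 unnamed identifiers under 1 CPM, where a library holds few counts.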
